A study of Mus musculus with 4 samples.

Results

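Heat shock proteins, J proteins and the subunits of the cytosolic chaperonin CCT were followed here through the contacts of their RNAs in mouse spermatogonial stem cells. Members were taken by symbol, from names that begin with Hsp, Dnaja, Dnajb, Dnajc or Cct followed by a family number or letter, plus Tcp1 and without the matrix protein gene Hspg2. The deposited table named 64 such RNAs among 13318, of which 60 were protein coding and 4 were pseudogenes (Hspd1-ps3, Hspa9-ps1, Hsp25-ps1 and Cct3-ps1). They occurred in 607 of the 56636 RNA pairs of the table. The symbol rule also took in Hspbp1, Hspbap1 and Hspb11, which are named after heat shock proteins but are no members of the chaperone families.

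Contacts had been measured by RIC-seq, which fixes RNA with bound protein in the cell, ligates RNA ends that lie close together and counts the resulting chimeric reads. There were 2 control libraries, labelled WT, and 2 libraries labelled Differentiation, all from spermatogonial stem cells fixed with 1% formaldehyde for 10 min. No allele or knockdown was named, and the sources used here gave neither the inducer of differentiation nor its duration, the strain or the age of the donor animals. The labels did not say whether the 2 libraries of a group came from separate cultures, so p-values cover only how far these libraries scattered, and that scatter may be technical.

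Chaperones of the HSP70 family bind unfolded stretches of other proteins and release them on ATP hydrolysis, and J proteins (the Dnaj genes) bring them their clients and trigger that hydrolysis. HSP90 takes over nearly folded clients such as kinases and steroid receptors, HSP60 and CCT are ring-shaped chambers in the mitochondrion and in the cytosol, and small heat shock proteins keep unfolded clients from clumping. Many of these genes are switched on by the heat shock factor HSF1 in stressed cells, and those of the endoplasmic reticulum (ER) by the unfolded protein response. Male germ cells also have forms of their own, such as Hspa2 and Hspa4l.

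The libraries held 793129 to 1400011 chimeric counts over pairs listed with at least 1 count in all 4 libraries. Markers of the labelled cell type were present but thin: 10 of 19 genes of undifferentiated spermatogonia were listed, and of the 8 tested Shisa6, Gfra1 and Foxo1 had lower contact totals in the differentiation libraries. Of 9 tested markers of differentiating spermatogonia and meiosis 5 were higher, and of 11 tested germ cell identity genes 3 were higher. Of 8 tested Sertoli cell markers 6 were lower, and of 10 tested fibroblast and feeder markers 4 were lower and 1 was higher. The summed Sertoli cell markers held 1236 and 1412 scaled counts (CPM, the counts-per-library scale of edgeR) in the controls against 740.4 and 722.8 CPM in the differentiation libraries, and Amh and Rhox5 were not listed. The summed fibroblast and feeder markers held 1981 and 1827 against 1733 and 1875 CPM. The part of Sertoli cells and fibroblasts in the results below was not tested. A contact total can move with the amount of an RNA as well as with its contacts, and in such bulk samples fewer cells of a type and less RNA per cell cannot be told apart.

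Pairs of the chaperone RNAs held 0.713% and 0.715% of the counts of the control libraries and 0.799% and 0.932% of those of the differentiation libraries, with 95% Wilson intervals of 0.698 to 0.728, 0.702 to 0.730, 0.780 to 0.819 and 0.914 to 0.949. The median chaperone RNA had 4 pairs and 167 counts over all libraries, against 3 pairs and 83 counts for all RNAs. Hspa8, the constitutive cytosolic HSP70, had 301 pairs and Hsp90ab1, the constitutive cytosolic HSP90, had 32. Together they held 28.8% and 25.7% of the members' summed counts. These counts are not scaled for RNA length, so they give no order of expression.

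Different kinds of contact made up the totals, in proportions that differed widely from one chaperone RNA to the next. Contacts within an RNA were listed for 17 of the 64 (26.6%, against 36.3% of all RNAs) and gave over 50% of the counts of 15. Contacts with 6 RNAs that pair with a large part of the transcriptome (Gm42418, Gm26917, Neat1, Malat1, Slc9a9 and Gm10800, here called hub RNAs) gave over 50% of the counts of 33. Pseudogene-linked pairs gave over 50% of the counts of 10. These are pairs in which either RNA is classed as a pseudogene, or whose partner has counts within 3 of those of such a pseudogene in every library. Pairs with a hub RNA were counted as hub pairs, also those with Gm42418, which is classed as a pseudogene. The rest joined a chaperone RNA to other RNAs.

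**Figure D1:**
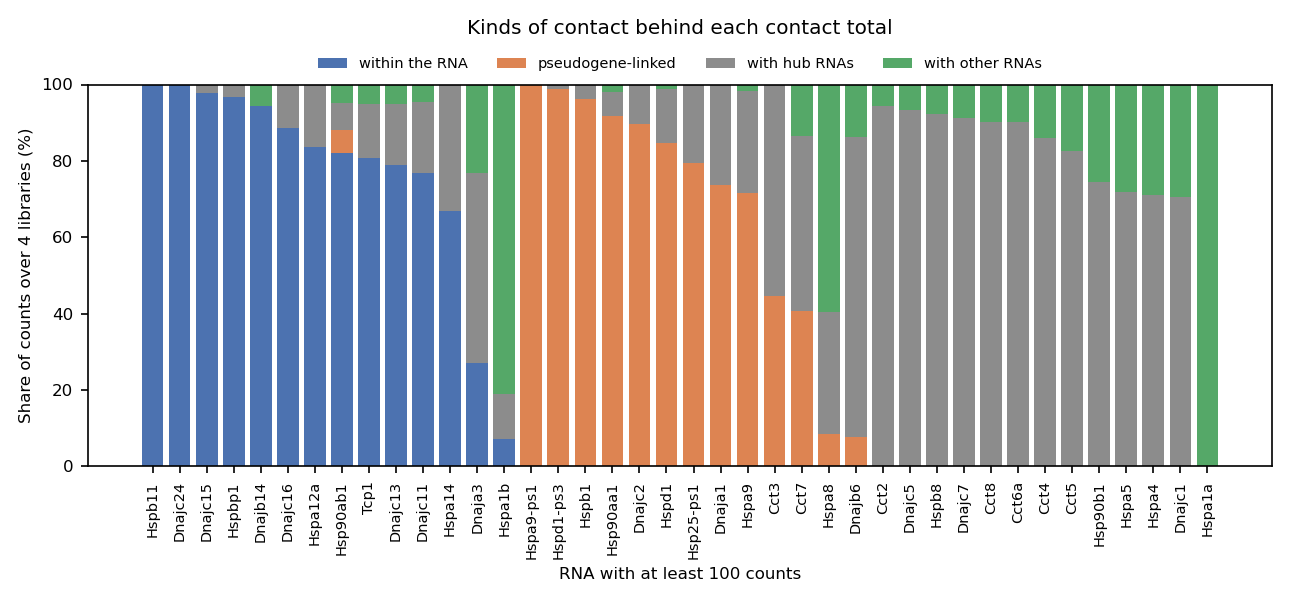
Share of the summed counts of 4 libraries, in percent (vertical axis), for each of the 40 chaperone RNAs with at least 100 counts (horizontal axis), split by kind of contact. Hspb11 and Dnajc24 are made up of contacts within the RNA, Hsp90aa1, Hspd1 and Hspb1 mostly of pseudogene-linked pairs, and most CCT subunits of contacts with hub RNAs.

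The makeup shifted between the groups. Contacts within RNAs gave 33.5% and 31.9% of the members' counts in the controls and 38.6% and 42.4% with differentiation. Pseudogene-linked pairs went from 11.6% and 10.8% to 17.4% and 21.0%, and hub RNAs from 27.8% and 31.3% to 22.6% and 19.95%. The groups did not overlap in any of the 3 shares. The separation of the share within RNAs depends on Hspa8, which had no listed contact within its RNA. It held 35.7% and 37.6% of the members' counts in the controls and 25.3% and 20.7% with differentiation. Without Hspa8, contacts within RNAs had 2890 of 5544 and 3198 of 6248 counts in the controls. With differentiation they had 2443 of 4736 and 4564 of 8545, and as shares these overlapped between the groups. The shares of pseudogene-linked pairs and of hub RNAs still did not overlap without Hspa8. Over the whole table contacts within RNAs held 48.9% and 49.4% of the control counts and 47.65% and 52.9% of the differentiation counts, which overlap, and hub RNAs 35.7% and 35.9% against 33.6% and 29.2%. Pseudogene-linked pairs of the whole table held 2.68% and 2.47% of the control counts and 3.72% and 4.76% of the differentiation counts. With 2 libraries against 2 an exact permutation test cannot go below p = 0.333, so no test is given for shares.

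The question put to each RNA was whether its contact total, the summed count of all its pairs, differed between differentiation and control. Of 60 chaperone RNAs with enough counts for edgeR's quasi-likelihood test, 8 were higher and 1 was lower at a Benjamini-Hochberg adjusted p under 0.05. Among all 10993 RNAs tested the same rule called 5.44% higher and 6.75% lower, and 2970 had an unadjusted p under 0.05. The 8 were Hsp90aa1, Hspd1, Hspd1-ps3, Tcp1, Dnajc16, Dnajc2, Hspa4l and Cct3-ps1, and the 1 was Hspa8. The log2 change lay above 0 for 37 of the 60 and below 0 for 23, with a median of 0.30 against −0.00071 for all RNAs. In 39 of the 60 the groups did not overlap, and 55.2% of all RNAs showed that.

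Without control 1, and likewise without control 2, no member passed in either direction. Over all 10993 RNAs the calls fell as well without either control. Each such fit has 1 library in an arm, but so have the fits without a differentiation library. Why the calls fell was not tested. The log2 changes themselves stayed in place, for Hsp90aa1 1.13 and 1.28 against 1.21, for Dnajc2 1.40 and 1.56 against 1.47, and more loosely for Cct3-ps1 1.44 and 2.54 against 1.87. Without differentiation 1, 15 were higher and 3 lower, and without differentiation 2, 5 were higher and 0 lower. Scaling by column totals alone moved the median of all totals by 0.16 on the log2 scale and gave 10 higher and 0 lower, and over all RNAs the share of calls that were higher went from 44.6% to 63.0%. Of the 8 called higher, 5 had over 80% of their counts in pseudogene-linked pairs, as did 7 of the 60 tested. Without such pairs, a setting chosen after seeing the data, 3 members were higher and 1 lower.

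**Figure D2:**
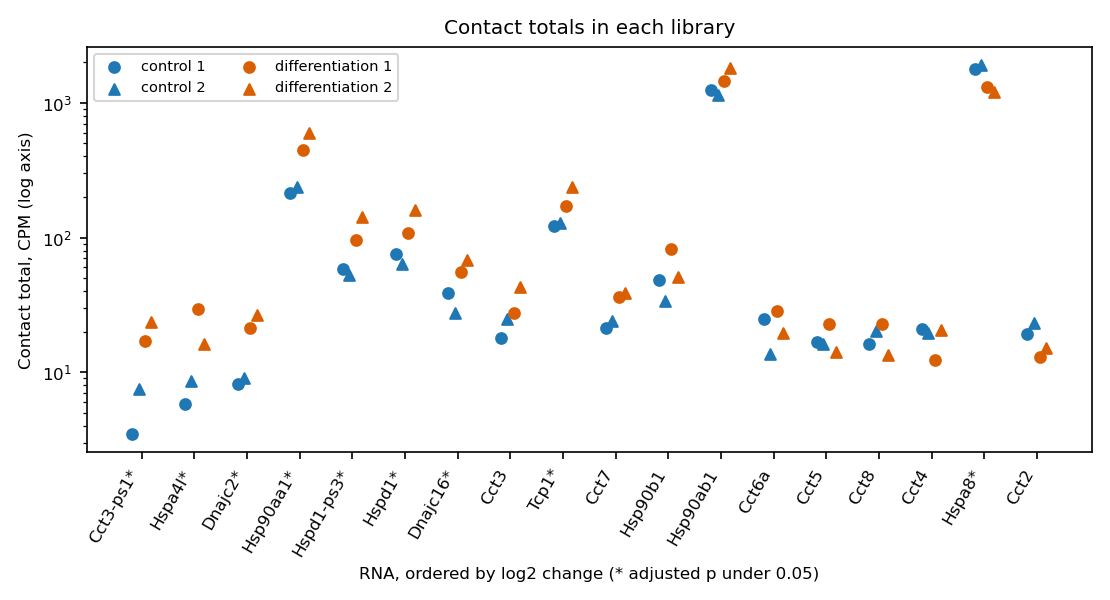
Contact total in CPM on a log axis for each library (blue controls, orange differentiation, circles for library 1 and triangles for library 2), for the 9 called RNAs and the other tested HSP90 and CCT members. For Hsp90aa1 both differentiation points (448 and 597 CPM) lie above both control points (215 and 238 CPM), and for Hspa8 both lie below.

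HSP90 RNAs were all on the higher side, and 1 of the 3 passed. Hsp90aa1, the stress-inducible cytosolic form (chromosome 12, 110691036 to 110696395, GRCm38.p6), had 371 and 473 counts in the controls and 549 and 1105 with differentiation. That was 226 ± 16.7 CPM against 522 ± 105 CPM (SD, n = 2), 2.31-fold higher (log2 change 1.21, SE 0.18, adjusted p = 0.00124). Each differentiation library stood above both controls, the second one furthest.

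Most of the Hsp90aa1 counts lay in pairs with pseudogenes. Its pair with Gm12346 had 121, 166, 193 and 385 counts in control 1 and 2 and differentiation 1 and 2, and its pair with Ssh2, a gene for a cofilin phosphatase, had 123, 167, 195 and 387. Gm12346 lies inside Ssh2 (chromosome 11, 77293438 to 77296198 within 77216157 to 77460220), and whether the same reads were counted under both names was not tested. The pair with a further pseudogene, Gm5844 on chromosome 3, had 81, 97, 115 and 250 counts. All 3 pairs rose, with log2 changes of 1.54 (SE 0.24, adjusted p = 0.000944), 1.54 (SE 0.24, adjusted p = 0.000938) and 1.55 (SE 0.26, adjusted p = 0.00208). Pseudogene-linked pairs gave 91.7% of the Hsp90aa1 counts, and no pair within Hsp90aa1 was listed. Without them its total changed by 0.80 and did not pass (adjusted p = 0.106).

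Hsp90ab1 (chromosome 17, 45567778 to 45573261) drew 82.2% of its counts from contacts within its own RNA. Those contacts had 1742 and 1838 counts in the controls and 1447 and 2816 with differentiation, or 1468 and 1319 against 2057 and 2697 CPM of all pairs. Once scaled for depth both differentiation libraries stood above both controls, and the pair rose 1.71-fold (log2 change 0.77, SE 0.18, adjusted p = 0.0151). The contact total of Hsp90ab1 changed by 0.46 (SE 0.16) and missed the threshold at an adjusted p of 0.0856, with no overlap between groups. It passed with DESeq2 (0.49, adjusted p = 0.0122), with column totals alone (adjusted p = 0.0481) and with the replicate number as a block (adjusted p = 0.0452). Its pair with the pseudogene Gm6368 on chromosome X had 119, 98, 99 and 149 counts (log2 change 0.74, adjusted p = 0.118).

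Hspa8 was the only chaperone RNA called lower. It had 3072 and 3769 counts in the controls and 1601 and 2224 with differentiation, or 1838 ± 85.6 against 1253 ± 74.1 CPM (SD, n = 2), which is 1.47-fold lower in differentiation (log2 change −0.55, SE 0.15, adjusted p = 0.0296). Both differentiation libraries stood below both controls after scaling. The call was lost with column totals alone (−0.40, adjusted p = 0.130), with no filter on low counts (−0.59, adjusted p = 0.0539), without differentiation 2 (−0.50, adjusted p = 0.0517) and without either control.

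Much of this total coincided with 3 small nucleolar RNAs that lie inside Hspa8. Snord14c, Snord14d and Snord14e are C/D box RNAs, a class that guides methylation of ribosomal RNA, and they occupy 40803583 to 40803669, 40803995 to 40804081 and 40804748 to 40804838 of chromosome 9 within Hspa8 (40801276 to 40805202). All 106 of their distinct partners were also listed as partners of Hspa8, and with none of them did the summed Snord14 count exceed that of Hspa8 in any library. Summed over these partners the 3 small RNAs had 1730 and 2216 counts in the controls and 859 and 1157 with differentiation, equal to 56.3%, 58.8%, 53.7% and 52.0% of the Hspa8 totals. How reads over overlapping genes were assigned was not given, and whether these were the same reads was not tested.

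**Figure D3:**
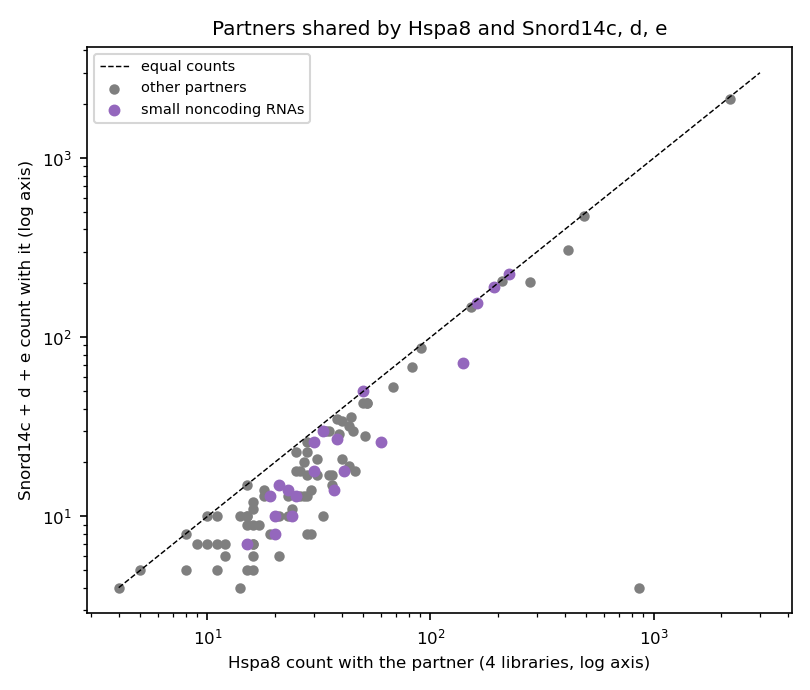
Summed count over 4 libraries of each partner with Hspa8 (horizontal, log axis) against its summed count with Snord14c, Snord14d and Snord14e together (vertical, log axis), for the 106 shared partners. No point lies above the dashed line of equal counts, many large ones such as Gm26917 (2201 and 2144 counts) lie on it, and the pseudogene Gm15459 (865 and 4 counts) lies far below it.

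Small noncoding RNAs were among the shared partners. The U3 small nucleolar RNA Rnu3b3 had 226 counts with Hspa8 and 226 with the Snord14 RNAs, and Rmrp, the RNA of the ribosomal RNA processing enzyme RNase MRP, had 161 and 156. In all, 30 partners of Hspa8 were snoRNAs, snRNAs, scRNAs or the RNAs of RNase P and RNase MRP. They had 1415 counts with Hspa8 and 943 with the Snord14 RNAs, which equals 66.6%. No other chaperone RNA had a pair with an RNA classed as snoRNA. The other members had 4 pairs with RNAs classed as snRNA, the class in which Rnu3b3 stands. Partners without a class, such as Gm23935 (paired with 15 members, Hspa8 among them), were not sorted further. Snord14c itself fell (log2 change −0.86, adjusted p = 0.00359), as did Snord14d (−0.57, adjusted p = 0.0384), and Snord14e had a change of −0.62 (adjusted p = 0.0520). With their counts taken off, a setting chosen after seeing the data, Hspa8 kept 1342, 1553, 742 and 1067 counts, and its change of −0.40 did not pass (adjusted p = 0.0984).

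Of 114 tested pairs of Hspa8, 4 fell (3.51%) and 1 rose (0.877%) by edgeR. Of all tested pairs 2.40% fell and 2.85% rose. The pair with the paraspeckle RNA Neat1 had 102 and 149 counts in the controls and 16 and 13 with differentiation (log2 change −2.50, SE 0.37, adjusted p = 0.000673). Summed over the libraries Neat1 had 280 counts with Hspa8 and 203 with the Snord14 RNAs. The contact total of Neat1 over all its partners fell by 2.34 on the log2 scale (adjusted p = 3.07e-05). The pair with the ribosomal protein gene Rps12 had 73, 83, 10 and 26 counts (−1.58, SE 0.38, adjusted p = 0.0203), and Snord100, inside Rps12, had the same counts. Rps12 had 192 counts with Hspa8 and 190 with the Snord14 RNAs. The pair with Gm26917 had 644, 911, 258 and 388 counts (−0.70, SE 0.20, adjusted p = 0.0491), while that with the nuclear RNA Malat1 had 127, 199, 64 and 100 (−0.42, adjusted p = 0.395). Over all partners the contact total of Gm26917 changed by −0.50 (adjusted p = 0.0296) and that of Malat1 by −1.09 (adjusted p = 0.00106), by edgeR.

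The pair of Hspa8 that rose, with the pseudogene Gm15459 on chromosome 5, had 865 counts, against only 4 of Gm15459 with the Snord14 RNAs. It had 192 and 185 counts in the controls and 172 and 316 with differentiation, or 162 and 133 against 244 and 303 CPM of all pairs (log2 change 0.90, SE 0.23, adjusted p = 0.0306). Pairs with counts close to those of the small RNAs did not all go down: that with Gm23935 had 31, 40, 28 and 53 counts. Gm23935 had 152 counts with Hspa8 and 148 with the Snord14 RNAs.

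Among the other HSP70 and HSP110 RNAs, 1 of 11 rose. Hspa4l, an HSP110 relative abundant in the testis, had 10 and 17 counts in the controls and 36 and 30 with differentiation, 7.17 ± 1.96 against 22.8 ± 9.30 CPM (SD, n = 2). This 3.17-fold difference (log2 change 1.62, SE 0.45, adjusted p = 0.0367) lay outside the spread of both groups, and 87.1% of its counts were with hub RNAs. Its pair with Slc9a9 rose from 1 and 3 counts to 7 and 12 (adjusted p = 0.0422), a ratio of 7.01 with an exact counting interval of 2.33 to 28.4.

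Hspa2, the HSP70 of meiotic and later male germ cells, had 2, 2, 7 and 5 counts, all with hub RNAs (log2 change 1.83, SE 0.78, adjusted p = 0.157). Hsph1, a cytosolic HSP110, had 8.68 and 7.56 against 19.6 and 16.2 CPM (1.13, SE 0.41, adjusted p = 0.101). In both RNAs each differentiation library stood above both controls, without passing.

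The heat-inducible pair Hspa1a and Hspa1b could not be separated. These neighbouring genes lie 10.1 kb apart on chromosome 17, and their shared pair had 62, 61, 24 and 80 counts, which was every count of Hspa1a and 81.1% of those of Hspa1b (the rest being contacts within the RNA and with hub RNAs). Differentiation 1 was the lowest library and differentiation 2 the highest, so the groups overlapped. The log2 change was −0.04 (SE 0.35, adjusted p = 0.960) for Hspa1a, whose sign turned with column totals alone, and 0.13 (SE 0.27, adjusted p = 0.824) for Hspa1b.

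Hspa9, the mitochondrial HSP70, had 79.3 and 81.6 CPM in the controls against 79.1 and 125 CPM (log2 change 0.36, SE 0.23, adjusted p = 0.349). Its pair with the pseudogene Hspa9-ps1 had 54, 52, 29 and 89 counts, lowest in differentiation 1 and highest in differentiation 2 (log2 change 0.64, SE 0.36, adjusted p = 0.337). Hspa4, Hspa14, Hspa12a and Hspa12b had log2 changes of 0.23, 0.34, −0.47 and 0.57, none past the threshold (adjusted p = 0.639, 0.411, 0.439 and 0.545).

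Hspa5, Hsp90b1, Dnajc3 and Dnajc10 of the ER lay above 0 without passing. The ER J protein RNAs Dnajc1 and Dnajb11 lay below 0 (log2 changes −0.38 and −0.36, not past the threshold), and 4 other ER folding genes rose. Hspa5 (BiP, the HSP70 of the ER; chromosome 2, 34772090 to 34776529) had 57.9 and 63.5 CPM in the controls and 81.5 and 101 CPM with differentiation (log2 change 0.59, SE 0.20, adjusted p = 0.0835). Hsp90b1, the HSP90 of the ER, had 48.0 and 33.7 against 81.5 and 50.7 CPM (0.68, SE 0.28, adjusted p = 0.147), and Dnajc3, an ER J protein that also inhibits an eIF2α kinase, had 9.26 and 7.05 against 19.6 and 14.6 CPM (1.05, SE 0.43, adjusted p = 0.139). For Hspa5, Hsp90b1 and Dnajc3 the groups did not overlap, and for Dnajc10 they did (0.36, SE 0.43, adjusted p = 0.641). Without hub pairs, which gave 74.4% of its counts, the change of Hsp90b1 was 0.22 (adjusted p = 0.820). Hub pairs also gave 71.9% of the counts of Hspa5 and 92.6% of those of Dnajc3.

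Of 18 tested ER chaperone and unfolded protein response genes that are no members, 4 rose and 0 fell by edgeR and by DESeq2, and 1 was lower at an unadjusted p under 0.05. Hyou1, an ER HSP110, went from 143 and 155 to 280 and 306 CPM (log2 change 0.97, adjusted p = 0.00257). The lectin chaperone Canx went from 252 and 252 to 404 and 439 CPM (0.74, adjusted p = 0.00831). Calr (0.75, adjusted p = 0.0308) and the disulfide isomerase Pdia4 (0.82, adjusted p = 0.0465) were the others. The gene lower at an unadjusted p under 0.05 was Sil1 (−0.88, adjusted p = 0.137). Regulators of the response on the list did not rise. Atf4 (−0.58), Atf6 (−0.55), Xbp1 (−0.55), Ern1 (−0.33) and Eif2ak3 (−0.13) lay below 0 and Ddit3 (0.13) above, with adjusted p from 0.238 to 0.923. Members and other genes together, the list had a median log2 change of 0.30 over 24 tested, against −0.00071 for all RNAs.

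Of the ER members, 3 shared a promoter feature that the symbol rule did not use, and Dnajc10 was not among them. Hspa5, Hsp90b1 and Dnajc3 were the members whose RefSeq promoter (GRCm38.p6, 250 bases before to 50 after the start) held the ER stress element (CCAAT, any 9 bases, then CCACG) on either strand. That is 5.77% of the 52 members with a promoter entry, against 0.137% of 27025 symbols. Stretches upstream of the start are shown 5′ to 3′ on the strand of the gene, with the element in capitals.
Hspa5, chr2:34771985-34772083, plus strand: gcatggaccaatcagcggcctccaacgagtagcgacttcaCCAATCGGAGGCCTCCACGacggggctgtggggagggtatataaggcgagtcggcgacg
Hsp90b1, chr10:86705598-86705694, minus strand: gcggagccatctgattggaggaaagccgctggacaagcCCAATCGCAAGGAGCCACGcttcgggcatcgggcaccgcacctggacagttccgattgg
Dnajc3, chr14:118937787-118937885, plus strand: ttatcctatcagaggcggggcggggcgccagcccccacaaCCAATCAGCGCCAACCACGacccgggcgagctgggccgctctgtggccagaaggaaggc

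The element began 65, 212 and 105 bases upstream of the listed start. Among all RNAs tested, 16 had a promoter with this element, and 10 of them lay above 0, with a median log2 change of 0.57. Calr, Canx and the germ cell helicase gene Tdrd9 were the 3 of these that rose (18.8%), and 0 fell (edgeR, adjusted p under 0.05). Among all 7268 tested RNAs with a promoter entry the median was −0.05, and 342 rose (4.71%) and 498 fell. A match of letters is a description and shows no binding.

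Among the mitochondrial chaperones, Hspd1 rose. Hspd1 (HSP60; chromosome 1, 55077833 to 55088243) had 131 and 126 counts in the controls and 133 and 295 with differentiation, or 69.6 ± 8.72 against 134 ± 35.9 CPM (SD, n = 2), 1.92-fold higher (log2 change 0.96, SE 0.22, adjusted p = 0.0168). After scaling, both differentiation libraries stood above both controls. Its pair with the pseudogene Hspd1-ps3 on chromosome 11 gave 84.7% of these counts, with 100, 104, 117 and 259 (log2 change 1.39, SE 0.26, adjusted p = 0.00465). Without it the change of Hspd1 was 0.26 (adjusted p = 0.741). Hspd1-ps3, with 98.8% of its counts in the same pair, rose with it (1.11, SE 0.22, adjusted p = 0.00830). Of 5 tested mitochondrial chaperone genes that are no members 0 passed with edgeR, with DESeq2 or at an unadjusted p under 0.05, and Hspe1, the partner of HSP60, was not listed.

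Hspd1, Dnajb6 and Hsph1 were the members whose promoter held a full heat shock element, the site bound by heat shock factors, searched as GAANNTTC with the next NNGAA joined to it, and as the reverse. This was 5.77% of the members with a promoter entry, against 0.662% of all symbols. No entry was listed for 12 members, Hspa8, Hsp90aa1 and Hsp90ab1 among them. In Hspd1 it stood before 1 of the 2 listed starts, the one further into the gene, so that its stretch lies within the gene's span. In Hsph1 no match lay wholly upstream of a listed start, so no stretch of it is shown. The stretches of Hspd1, which rose, and of Dnajb6, which did not, are given with the element in capitals.
Hspd1, chr1:55088024-55088116, minus strand: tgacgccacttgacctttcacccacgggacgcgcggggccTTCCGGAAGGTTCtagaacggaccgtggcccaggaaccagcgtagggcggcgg
Dnajb6, chr5:29735812-29735897, plus strand: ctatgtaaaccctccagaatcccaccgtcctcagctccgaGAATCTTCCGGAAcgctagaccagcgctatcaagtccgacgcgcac

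RNAs with this element did not share a direction. Dnajb6, a J protein that holds back aggregation, had 29.5 and 29.7 against 17.1 and 19.4 CPM (log2 change −0.69, SE 0.31, adjusted p = 0.179). Hsph1 lay above 0 without passing (1.13, SE 0.41, adjusted p = 0.101). Of 49 tested RNAs of the whole table with the element, 24 lay above 0, and 2 rose (Hspd1 and Art3) and 1 fell (Mgmt). The share that rose was 4.08%, near the 4.71% of all tested RNAs with a promoter entry. The CCAAT box was in the promoters of 21 members (40.4%, against 41.1% of all symbols) and the TATA box in TATAAA form in that of Dnajc24 alone (1.92% against 15.7%). The element's overlapping parts, GAANNTTC and TTCNNGAA, were in those of 11 (21.2% against 9.04%) and 7 (13.5% against 9.60%).

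The list of textbook HSF1 targets, which includes many members, had 5 higher and 1 lower of 23 tested, with a median log2 change of 0.19. Of all RNAs 5.44% were higher and 6.75% lower. Hsp90aa1 and Hspd1 are among the 5, and neither passed without pseudogene-linked pairs. Dnajb1 (−0.17), Bag3 (−0.19) and Chordc1 (−0.31) lay below 0 and Hsph1 (1.13) and Sqstm1 (0.40) above, none past the threshold. Stip1, which links HSP70 to HSP90 and is no member, rose from 509 and 399 to 620 and 857 CPM (0.70, SE 0.19, adjusted p = 0.0326). Hsf1 itself had a change of −0.71 (adjusted p = 0.264).

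Among CCT subunits, Tcp1 (CCT1) rose and the other 7 tested did not pass. Tcp1 (chromosome 17, 12916329 to 12925067) had 209 and 253 counts in the controls and 209 and 441 with differentiation, or 124 ± 4.61 against 204 ± 47.8 CPM (SD, n = 2; log2 change 0.72, SE 0.19, adjusted p = 0.0311). Contacts within its own RNA gave 80.7% of the total and rose from 150 and 205 to 170 and 372 counts, 126 and 147 against 242 and 356 CPM of all pairs (1.13, SE 0.24, adjusted p = 0.0109). It was the only CCT subunit with a listed contact within the RNA. Snora20 and another snoRNA gene lie inside Tcp1, and none of the pairs of Tcp1 was with an RNA classed as snoRNA.

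Cct3 and Cct7 had changes close to that of Tcp1 without passing. Cct3 had 17.9 and 24.7 against 27.7 and 42.6 CPM (log2 change 0.74, SE 0.33, adjusted p = 0.173) and Cct7 had 21.4 and 24.2 against 35.9 and 38.9 CPM (0.71, SE 0.28, adjusted p = 0.131). Both carried pseudogene-linked pairs, and without these the change was 0.0044 (adjusted p = 0.996) for Cct3 and 0.77 (adjusted p = 0.188) for Cct7. The pair of Cct3 with Cct3-ps1 on chromosome 4 had 6, 15, 21 and 44 counts and rose (2.16, SE 0.49, adjusted p = 0.0150), and it was the single pair of Cct3-ps1 (1.87, SE 0.47, adjusted p = 0.0242 for its total).

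The remaining subunits drew 82.6% to 94.3% of their counts from hub RNAs and showed no shared direction. Cct2, Cct4 and Cct8 had log2 changes of −0.58, −0.27 and −0.04, and Cct5 and Cct6a of 0.14 and 0.31, with adjusted p from 0.324 to 0.966. The sign of Cct8 turned with column totals alone and with DESeq2. For Cct4, Cct5, Cct6a and Cct8 the groups overlapped, and for Cct2 both differentiation libraries stood below both controls. Of the 5 tested CCT cofactors and prefoldin genes 0 passed with edgeR, with DESeq2 or at an unadjusted p under 0.05, and their median change was 0.63.

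J proteins as a family showed no common direction. Of 27 tested, 12 lay above 0 and 15 below, with a median of −0.04, and 2 rose and 0 fell by edgeR. The same rule called 5.44% of all RNAs tested higher and 6.75% lower. At an unadjusted p under 0.05 there were 3 higher and 4 lower, and DESeq2 called 0 in either direction. Dnajc16 had 67 and 55 counts in the controls and 68 and 127 with differentiation, 33.2 ± 7.82 against 62.0 ± 9.27 CPM (SD, n = 2; log2 change 0.91, SE 0.26, adjusted p = 0.0390). Its contacts within the RNA, 88.6% of the total, had 58, 46, 61 and 116 counts and rose too (1.28, SE 0.31, adjusted p = 0.0222). With DESeq2 the totals of Dnajc16 (adjusted p = 0.0708) and of Dnajc2 (adjusted p = 0.0752) did not pass.

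Dnajc2, a ribosome-bound J protein that works with Hspa14, had 14 and 18 counts in the controls and 26 and 49 with differentiation, 8.58 ± 0.683 against 23.8 ± 3.71 CPM (SD, n = 2; log2 change 1.47, SE 0.37, adjusted p = 0.0253). The groups did not overlap. Its pairs with the pseudogene Gm18913 and with C130060K24Rik, the gene in which that pseudogene lies, had the same 6, 7, 11 and 24 counts and gave 89.7% of its total. With 1 of each set of identical pairs its change was 1.33 (adjusted p = 0.104).

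None of the J protein RNAs with the largest totals passed. Dnajc13, an endosomal J protein, had 192 and 216 against 178 and 224 CPM (log2 change −0.02, SE 0.17, adjusted p = 0.967), with a sign that turned with RLE scaling, column totals alone and DESeq2. Dnajc11, of the mitochondrial membranes, had 109 and 121 against 84.0 and 95.6 CPM (−0.35, SE 0.19, adjusted p = 0.254), with no overlap. Dnajc15, of the mitochondrial import motor, had 93.2 and 78.6 against 91.3 and 131 CPM (0.39, SE 0.22, adjusted p = 0.281), with overlap.

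Dnajc1, an ER J protein, had 76.95 and 79.6 against 62.0 and 58.3 CPM (log2 change −0.38, SE 0.20, adjusted p = 0.241). Its pair with Neat1 fell from 19 and 17 counts to 1 and 2 (−2.96, SE 0.76, adjusted p = 0.0304), a ratio of control over differentiation of 8.13 with an exact counting interval of 2.57 to 41.2. Without hub pairs the change of Dnajc1 was 0.03 (adjusted p = 0.979). The other J protein RNAs ranged from −1.38 (Dnajc4, all contacts within the RNA) to 1.05, and Dnaja4, Dnajc17 and Dnajc25, with Cct6b of the chaperonin, had too few counts to be tested.

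**Figure D4:**
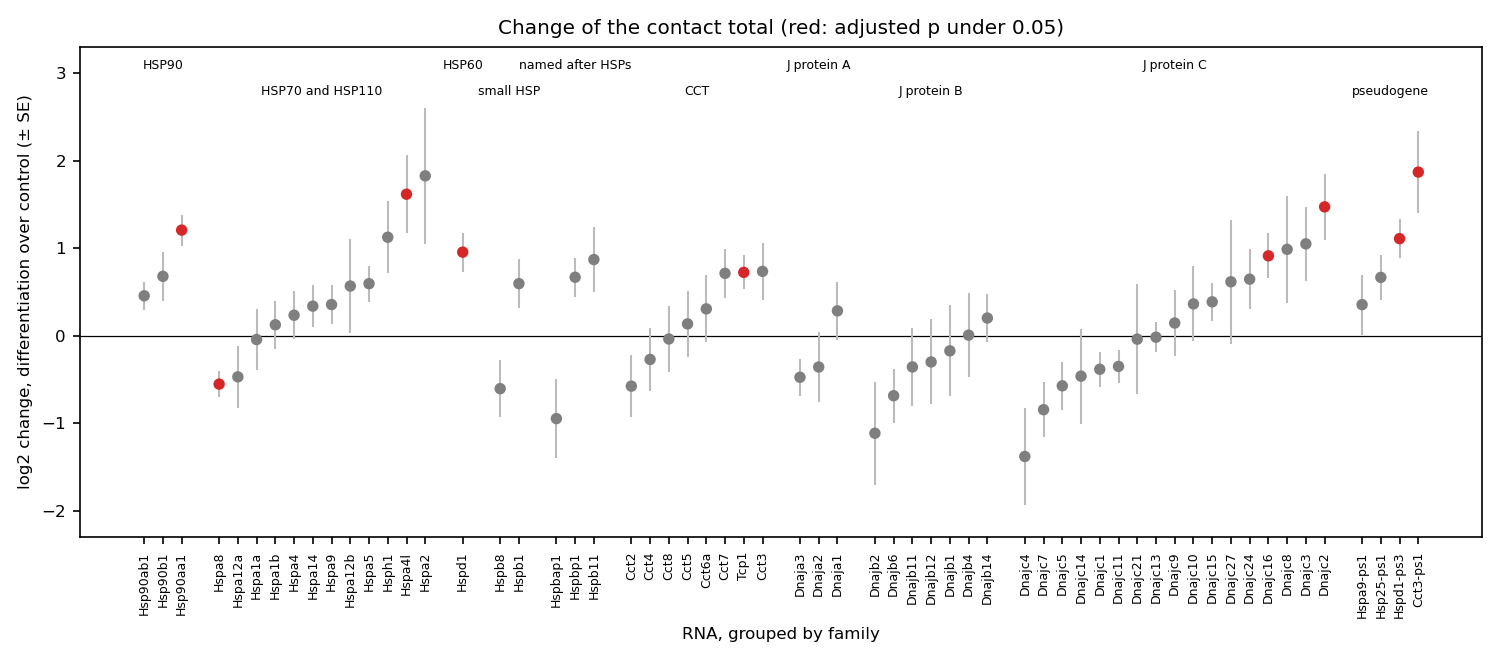
Log2 change of the contact total, differentiation over control, with its standard error (vertical axis), for the 60 tested RNAs grouped by family (horizontal axis). The 9 RNAs in red passed an adjusted p under 0.05; all 3 HSP90 RNAs and all 4 pseudogenes lie above 0, while the J proteins lie on both sides.

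The small heat shock proteins had few listed RNAs. Hspb1 (HSP25), with 96.1% of its counts in the pair with Hsp25-ps1 on chromosome 13, had 33.0 and 28.2 against 36.7 and 54.5 CPM (log2 change 0.60, SE 0.28, adjusted p = 0.199). Hspb8, with 92.2% of its counts from hub RNAs, had 24.9 and 32.7 against 17.1 and 20.5 CPM (−0.60, SE 0.32, adjusted p = 0.258). In each the groups did not overlap and the directions were opposite.

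Of the RNAs named after heat shock proteins, Hspbp1, which exchanges the nucleotide of HSP70, had 57.9 and 53.4 against 104 and 74.0 CPM (0.67, SE 0.22, adjusted p = 0.0762). Contacts within Hspbp1 rose from 92 and 102 to 127 and 135 counts (1.03, SE 0.26, adjusted p = 0.0297). Hspb11, a subunit of intraflagellar transport, had a change of 0.87 (adjusted p = 0.158) and Hspbap1 one of −0.95 (adjusted p = 0.201).

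Among the co-chaperones of HSP90 and HSP70, 3 of 28 tested genes that are no members rose and 0 fell by edgeR and by DESeq2, and at an unadjusted p under 0.05 there were 7 higher and 0 lower. The list median, members included, was −0.01. Tomm70a, the mitochondrial import receptor that docks both chaperones, went from 133 and 106 to 272 and 285 CPM (log2 change 1.22, SE 0.17, adjusted p = 0.00109). Ptges3 (p23), which closes the HSP90 clamp, had a change of 0.78 (adjusted p = 0.0398), and Stip1 is given above.

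Single pairs were tested over the whole table, of which 295 chaperone pairs had enough counts. By edgeR 11 rose and 5 fell, where the same rule called 2.85% of all 31688 tested pairs higher and 2.4% lower (5.24% in either direction). Without control 1 these were 5 and 1, without control 2 they were 4 and 2, and without differentiation 1 they were 18 and 7. Column totals alone gave 8 and 6, and over all pairs that scaling took the share of calls that were higher from 54.3% to 38.4%.

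The changes followed the kind of contact. All 20 tested pseudogene-linked pairs lay above 0, with a median log2 change of 1.19, and 6 rose and 0 fell with edgeR and with DESeq2 (13 higher and 0 lower at an unadjusted p under 0.05). Over all RNAs 894 such pairs were tested, with a median of 0.88, and 114 rose and 0 fell. Pairs of this kind are not all separate. Of the 22 listed for chaperone RNAs, 4 were included because their counts follow those of a pseudogene pair, so their direction was set by that pair. The pairs of Hsp90aa1 with Gm12346 and with Ssh2, nearly equal in counts, are both among the 6 that rose. Of 17 tested contacts within a chaperone RNA 4 rose (Hsp90ab1, Tcp1, Dnajc16 and Hspbp1) and 0 fell (9 higher and 0 lower at an unadjusted p under 0.05, and 4 and 0 by DESeq2), with a median of 0.69, against 0.44 for all 4439 tested contacts within an RNA, of which 12.35% rose and 3.33% fell. Of 124 hub pairs 1 rose (0.807%) and 3 fell (2.42%), with a median of 0.17, where of all 18919 tested hub pairs 0.555% rose and 2.92% fell, with a median of −0.14. Of 134 pairs with other RNAs 0 rose and 2 fell (10 higher and 12 lower at an unadjusted p under 0.05, and 0 and 2 by DESeq2), with a median of −0.11. The 2 that fell (1.49%) were those of Hspa8 with Rps12 and with Snord100, which had the same counts and are not separate. Of all tested pairs of any kind 2.85% rose and 2.40% fell.

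**Figure D5:**
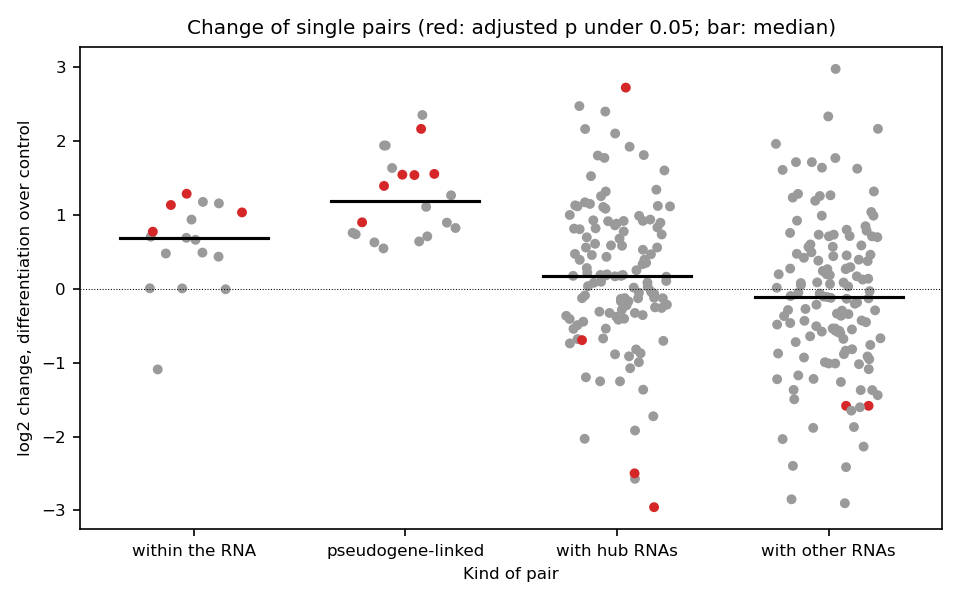
Log2 change, differentiation over control (vertical axis), of the 295 tested pairs by kind of contact (horizontal axis), with horizontal bars at the medians and red points past an adjusted p under 0.05. Every pseudogene-linked pair lies above 0, while pairs with hub RNAs and with other RNAs lie on both sides and hold all 5 falls.

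Chaperone RNAs were seldom joined to each other. The 5 pairs of 2 members were Hspa1a with Hspa1b, and Hspb1, Hspa9, Hspd1 and Cct3 each with the pseudogene named after it, so no pair joined RNAs of different chaperone families. No J protein was paired with an HSP70 and no CCT subunit with another. A pair absent from even 1 library was not analysed here. Of 10 coding members with a pseudogene-linked pair of at least 40 counts, 1 (Hsp90ab1) also had a listed contact within its own RNA. Whether reads within such an RNA were counted against its near-copy was not tested.

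Whether contacts within an RNA moved more than its contacts with other RNAs was tested directly as an interaction. Of 3802 RNAs 0 passed with edgeR (0% called in either direction, 651 with an unadjusted p under 0.05), and so none of the 13 tested chaperone RNAs did. The difference lay above 0 for 11 of the 13, with a median of 0.58, and for 72.3% of all RNAs tested. The difference of Dnajc13 was 1.07 (SE 0.24, unadjusted p = 0.00350, adjusted p = 0.171), and its counts within the RNA were 245, 312, 181 and 360 against 87, 116, 37 and 55 between RNAs. That of Hspbp1 was 2.36 (SE 0.78, adjusted p = 0.246), on 8, 4, 1 and 2 counts between RNAs.

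Few partners were near neighbours on the chromosome. Only 6 entries in the list of members and partners joined genes within 200 kb of each other, 2 of them the Hspa1a and Hspa1b pair seen from either side. The largest of the others was Dnaja3 with Vasn, 32.9 kb apart on chromosome 16, with 41, 16, 17 and 8 counts (log2 change −0.59, adjusted p = 0.645). In 480 entries the partner lay on other chromosomes. Without Hspa8, 52.0% of the 294 contacts with other RNAs were with hub RNAs. Over all members, Hspa8 included, Slc9a9 was paired with 47, Gm26917 with 45, Gm42418 with 44, Malat1 with 14 and Neat1 with 8.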

How the data were processed

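RIC-seq counts came from 2 libraries of control cells and 2 of differentiation. Per the labels' protocols, micrococcal nuclease cut the RNA, pCp-biotin marked the ends, proximity ligation was done inside the fixed cells, and the strand-specific libraries measured about 260 bp. The deposited values are whole-number counts of chimeric reads for each RNA pair in each library, and nothing in them shows a normalization by the authors. The submitters' processing notes name STAR and GRCm38, with no version and no step. How duplicates and overlapping or near-identical genes were handled is not given in the sources used here, so values of copies and of nested genes are uncertain. Gene classes and 1-based coordinates came from a RefSeq gene table of GRCm38.p6, which held all 64 members.

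Counts were summed per RNA, a contact within an RNA once and a contact between RNAs in both totals. Totals and single pairs were fitted over the whole table with edgeR 4.0.16 (R 4.3.3): TMM scaling, filterByExpr with minimum count 5 and minimum total 10, quasi-likelihood F test, two-sided, Benjamini-Hochberg over all RNAs or pairs tested, threshold 0.05. The biological coefficient of variation was 18.7% for totals and 24.9% for pairs. SE is the log2 change divided by the root of F. CPM of totals and of pairs are on different scales, since a contact between RNAs enters 2 totals. The interaction test used 8 columns with library and kind of contact as terms. On simulated counts with made changes the tests recovered 28% of totals changed by 1 log2 unit and 92% of those changed by 2, 7% and 67% of pairs, and 13% and 80% of interactions.

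Wilson intervals (95%) and exact intervals of ratios cover counting error only. Named were the called members, the 12 of largest count, the tested HSP90, HSP70 and CCT members, called member pairs (12 at most by adjusted p), the 8 largest pairs between RNAs, pairs of 2 members, and up to 4 called genes of each list. Further names (other members, Rnu3b3, Rmrp, Snord14c to e, Vasn, genes with promoter motifs) were chosen after their values were seen. The members and lists were chosen with earlier results of these data known. Alternatives were other scalings and filters, DESeq2 1.42.0, a replicate block, an adjusted p under 0.1, subsets of pairs and leaving out each library. Leaving out pseudogene-linked pairs or the Snord14 counts was chosen after seeing the data.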

Additional observations from a re-analysis of the deposited data

How the results depend on the processing

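Calls are by edgeR unless DESeq2 is named. For contact totals, 8 higher and 1 lower became 3 higher without hub pairs and 3 higher without pseudogene-linked pairs, and 0 lower with column totals only, with no filter on low counts, with contacts between RNAs only and with Snord14 counts taken off Hspa8. Leaving out 1 library each gave 0 to 15 higher and 0 to 3 lower. For pairs, 11 higher and 5 lower became 7 higher with no filter, 8 lower with the default filter, and 21 higher and 10 lower at an adjusted p under 0.1. Leaving out 1 library each gave 4 to 18 higher and 1 to 7 lower. A library left alone in its group borrowed the spread of the other group in these fits.

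The same replicate numbers occur in both groups, but with 2 libraries a group they share only a number (correlation of deviations 0.14 over 10993 RNAs). With the replicate block 10 totals were higher and 1 lower, and 18 pairs were higher and 8 lower. The interaction test called 0 members under every alternative run on it.

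Alternatives were computed for 32 named members, not for the others. Signs of log2 changes turned for 11 of these, none past the threshold where the sign turned. Leaving out 1 library each gave Cct4 −0.72 to 0.055, Cct5 −0.19 to 0.47, Cct6a −0.069 to 0.80, Cct8 −0.40 to 0.32, Dnajc13 −0.20 to 0.17, Hspa12a −1.05 to 0.018, Hspa1a −0.76 to 0.41, Hspa1b −0.23 to 0.41, Hspa4 −0.0022 to 0.53 and Hspa9 −0.027 to 0.67. Column totals turned Cct8 (0.12), Dnajc13 (0.15) and Hspa1a (0.13), RLE scaling, the default filter and 1 of each set of identical pairs turned Dnajc13 (0.016, 0.0069 and 0.019), and DESeq2 turned Cct8 (0.0083) and Dnajc13 (0.016). Contacts between RNAs only turned Cct8 (0.12) and Hspa1a (0.15), removal of hub pairs Dnajc1 (0.026) and Hspa1b (−0.15), and removal of pseudogene-linked pairs Cct8 (0.028), Dnajc13 (0.052) and Hspa1a (0.027). The causes were not tested. Depth limited what could be called: 24 of the 64 members had under 100 counts, and 4 could not be tested.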
